A study of Mus musculus with 18 samples.

Results

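The expression of 10 genes of bone morphogenetic protein (BMP) signalling was followed through the reprogramming of mouse fibroblasts to induced pluripotent stem cells (iPSC). They were the ligand genes Bmp2, Bmp4, Bmp7 and Bmp8b, the antagonist gene Grem1, the inhibitor of DNA binding genes Id1, Id2, Id3 and Id4, and the inhibitory Smad gene Smad6. They were chosen by name, with earlier results of these data known. Each was represented by the probe set that its RefSeq accession mapped to. All 10 were found among the 20233 genes of the table, each with 1 probe set, so that no choice between probe sets was needed.

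Affymetrix arrays, 18 in all, measured RNA from 9 groups with 2 arrays each, and the cells of every group carried Rosa26-M2rtTA, the doxycycline-dependent transactivator, with an Oct4-GFP reporter. Day 0 was secondary mouse embryonic fibroblasts at passage 4, derived from E13.5 embryos made wholly from iPSC by tetraploid complementation and grown in feeder medium. Days 1, 3, 5, 7, 11 and 15 were these cells in embryonic stem cell medium with serum, LIF, doxycycline (1 µg/ml) to induce the reprogramming factors Oct4, Sox2, Klf4 and c-Myc, and vitamin C (50 µg/ml). Day 18 was the cells that remained 3 days after both additives were removed, and the iPSC group was an established line in stem cell medium with Gsk3 and Mek inhibitors (2i), with or without feeder cells. The labels do not say whether the arrays of a group came from separate cultures, so the spread behind each p-value is that between 2 arrays and may be technical. Serum can itself contain BMP activity, and day 0 differed from the induced cells in medium and vitamin C as well as in the factors, which cannot be told apart.

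BMPs are secreted ligands of the TGF-beta superfamily. They bind pairs of type I and type II receptor kinases, which phosphorylate Smad1, Smad5 and Smad9. These join Smad4 in the nucleus and switch on target genes. Among the best known direct targets are the Id genes, whose products pair with basic helix-loop-helix factors such as the E proteins and keep them from binding DNA, and Smad6, whose product feeds back on the pathway. Gremlin 1, the product of Grem1, binds and blocks BMP2, BMP4 and BMP7 outside the cell. In mouse embryonic stem cells kept with serum and LIF, BMP signalling is known to support self-renewal through Id genes, and in fibroblast reprogramming it is known to favour the early passage to an epithelial state.

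Values are log2 levels made by the authors with RMA, and a difference of 1 on this scale is a doubling. Genes were compared with limma over all 18 arrays, and a gene was called where its Benjamini-Hochberg adjusted p over all genes was under 0.05 and its log2 difference was at least 1 in size. Levels under 5.32, the 95th percentile of 1075 olfactory receptor genes, were taken as background. Array levels are not comparable between genes, so each gene is compared with itself only.

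The labels were checked against marker genes. On day 0 none of 9 fibroblast markers and 7 of 8 pluripotency markers had a mean under background, and in iPSC none of the 8 did. The summed signal of the fibroblast markers did not stay low after induction. Its log2 was 14.51 and 14.54 on the arrays of day 0 and 9.86 and 9.84 on day 15. It was 12.37 and 11.54 on day 18 and 13.32 and 13.16 in iPSC. The arrays of day 18 differed from each other more than those of the other groups, with 264 genes over 2-fold apart against 5 to 16, and their correlation over genes was 0.993 against 0.997 to 0.998. Macrophage markers, of which 5 of 6 were measured, had a summed signal of 10.69 and 10.63 on day 0, 7.41 and 7.48 on day 11, 8.28 and 8.41 on day 15, 9.57 and 9.78 on day 18 and 7.32 and 7.16 in iPSC. On day 18 Csf1r stood at 9.40 and 9.62, above its day 0 level, and Lyz2 was under background, so these markers did not move together. In such bulk samples, fewer cells of a type and less RNA per cell cannot be told apart.

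RefSeq promoter windows of the assembly GRCm38.p6, running from 250 bases before to 50 after the transcription start, were at hand for 7 of the 10 genes: Bmp4, Bmp8b, Grem1, Id2, Id3, Id4 and Smad6. They were searched for 3 palindromic motifs, each of which reads the same on both strands and none of which overlapped another. These were the Smad binding element GTCTAGAC, the GC-rich motif GGCGCC that BMP Smads can bind, and the E-box CACGTG that Myc and Max can bind. GTCTAGAC occurred in Smad6, at position -4 from the start, and in 0.213% of all 32851 windows. GGCGCC occurred in Id2 at -231, Id4 at -148 and Grem1 at -78, and in 11.9% of all windows. CACGTG occurred in Bmp4 at -188, and in 7.15% of all windows. A match describes letters only, and a window without one says nothing about a factor. The windows of 3 Id genes are shown because these paralogs went different ways below, that of Smad6 for its complete Smad element and that of Bmp4 because this ligand gene fell most. Capitals mark the motifs. The windows are chr12:25096043-25096342 on the minus strand for Id2, chr4:136143572-136143871 on the plus strand for Id3, chr13:48260866-48261165 on the plus strand for Id4, chr9:64022010-64022309 on the minus strand for Smad6 and chr14:46390620-46390919 on the minus strand for Bmp4.
Id2: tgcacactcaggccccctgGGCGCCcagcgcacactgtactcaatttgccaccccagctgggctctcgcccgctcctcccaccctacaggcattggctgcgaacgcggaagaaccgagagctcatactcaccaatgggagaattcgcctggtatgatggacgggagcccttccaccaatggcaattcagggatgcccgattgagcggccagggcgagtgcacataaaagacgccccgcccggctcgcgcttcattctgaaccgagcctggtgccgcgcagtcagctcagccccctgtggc
Id3: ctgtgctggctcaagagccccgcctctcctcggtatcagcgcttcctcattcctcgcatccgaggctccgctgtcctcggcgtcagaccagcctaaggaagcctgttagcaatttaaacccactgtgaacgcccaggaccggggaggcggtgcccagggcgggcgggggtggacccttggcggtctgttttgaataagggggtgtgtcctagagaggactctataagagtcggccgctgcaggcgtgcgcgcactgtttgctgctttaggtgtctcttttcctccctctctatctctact
Id4: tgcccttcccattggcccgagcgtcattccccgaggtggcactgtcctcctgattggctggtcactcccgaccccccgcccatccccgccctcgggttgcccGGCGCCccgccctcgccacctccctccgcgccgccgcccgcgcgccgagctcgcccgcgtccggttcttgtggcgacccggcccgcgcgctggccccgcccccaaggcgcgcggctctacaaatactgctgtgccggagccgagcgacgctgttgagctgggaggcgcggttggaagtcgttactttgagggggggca
Smad6: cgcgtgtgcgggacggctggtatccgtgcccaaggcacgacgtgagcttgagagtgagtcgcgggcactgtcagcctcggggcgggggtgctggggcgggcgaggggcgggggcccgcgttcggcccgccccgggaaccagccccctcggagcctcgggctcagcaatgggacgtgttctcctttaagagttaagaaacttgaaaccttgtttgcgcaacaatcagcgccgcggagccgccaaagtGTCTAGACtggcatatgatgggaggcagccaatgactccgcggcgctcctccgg
Bmp4: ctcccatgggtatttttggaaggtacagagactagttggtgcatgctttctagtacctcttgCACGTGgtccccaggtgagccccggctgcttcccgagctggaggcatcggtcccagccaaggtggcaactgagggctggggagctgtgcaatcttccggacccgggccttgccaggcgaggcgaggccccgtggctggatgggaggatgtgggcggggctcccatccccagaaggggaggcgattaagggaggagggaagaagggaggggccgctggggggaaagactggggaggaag

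All 10 genes varied over the 9 groups at an adjusted p under 0.05 in the F test of limma, as did 78.8% of all genes, which leaves little for this count to tell. The range between the highest and lowest group mean ran from 0.83 for Smad6 to 4.57 for Bmp8b, with a median of 2.91, beside a median of 0.85 and a 90th percentile of 2.38 over all genes. Of the 10, 8 stayed over background in every group. Bmp7 lay under it on days 0 and 1, and Bmp2 in all 9 groups.

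**Figure D1:**
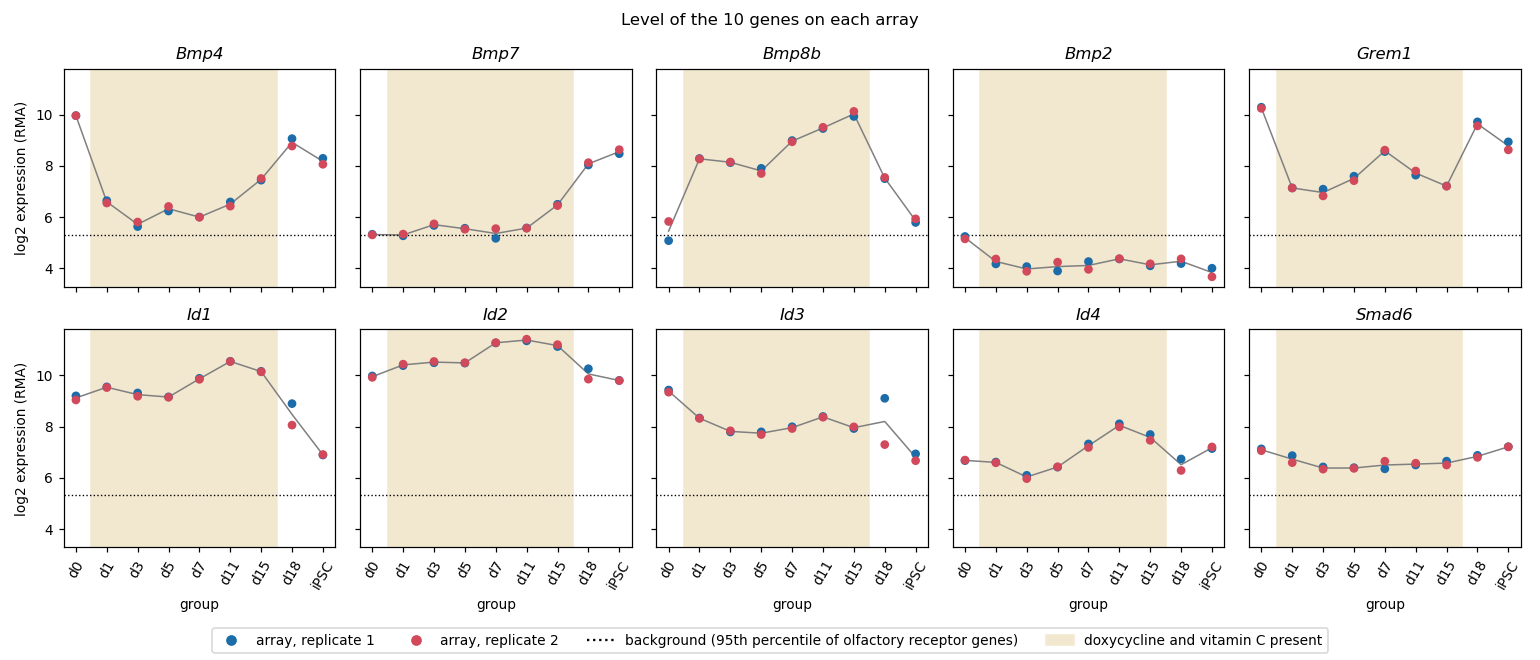
Log2 expression of the 10 genes (vertical axes) on each of the 18 arrays, by group (d0 to d18 are days 0 to 18), with a line through the group means, the background level dotted and the days with doxycycline and vitamin C shaded. Bmp4 and Grem1 dropped on day 1 and were high again on day 18, Bmp8b was highest on day 15 and near its day 0 level in iPSC, and the day 18 arrays of Id3 stood apart.

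On day 1 against day 0, the earliest step of induction, 4 of the 10 genes were called, against 14.2% of all genes. Bmp4 and Grem1 fell together, Bmp8b rose, and Id3 fell. The other 3 Id genes were not called, and neither were Bmp2, Bmp7 and Smad6.

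Bmp4, the ligand gene most used in stem cell work, stood at 9.96 on both arrays of day 0, at 6.64 and 6.55 on day 1 and at 5.63 and 5.81 on day 3. It was at 6.24 and 6.42 on day 5, 6.01 and 5.99 on day 7, 6.59 and 6.43 on day 11 and 7.44 and 7.51 on day 15. After removal of the additives it was at 9.06 and 8.77, and iPSC had 8.29 and 8.06. No array of days 1 to 15 reached any array of day 0, day 18 or iPSC. On day 1 it fell by 3.36 ± 0.11 (SE) on the log2 scale, or 10.3-fold, with adjusted p = 2.70e-11 in limma. On day 3, its lowest group, Bmp4 was 18.9-fold lower than on day 0.

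Grem1 encodes a secreted BMP antagonist that fibroblasts commonly make. Its arrays stood at 10.29 and 10.24 on day 0, 7.14 and 7.14 on day 1 and 7.09 and 6.83 on day 3. They then stood at 7.60 and 7.42 on day 5, 8.56 and 8.61 on day 7, 7.64 and 7.80 on day 11 and 7.21 and 7.21 on day 15. Day 18 had 9.72 and 9.56, and iPSC 8.94 and 8.62. Every array of days 1 to 15 lay below those of day 0 and day 18, and day 7 was the highest of these days. Between days 5 and 15 the group means of Grem1 and Bmp4 moved in opposite directions at each step. On day 1 Grem1 fell by 3.13 ± 0.11 (SE), or 8.73-fold (limma adjusted p = 5.76e-11). Over the 9 group means Bmp4 and Grem1 had a Pearson r of 0.835, a description of these groups in which both genes were measured on the same arrays.

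Bmp8b encodes a ligand best known from male germ cells and brown fat. Its arrays were unlike each other on day 0, at 5.08 and 5.83, on either side of the background. They stood at 8.29 and 8.27 on day 1, 8.13 and 8.15 on day 3, 7.90 and 7.70 on day 5 and 8.99 and 8.94 on day 7. Day 11 had 9.46 and 9.50, and day 15, the highest group, had 9.93 and 10.12. The gene was thus high on every day with the additives, with a step up between days 5 and 7. Removal was followed by 7.50 and 7.55 on day 18, and iPSC had 5.79 and 5.93, so that the arrays of iPSC and day 0 overlapped. Bmp8b rose by 2.82 ± 0.17 (SE) on day 1 (limma adjusted p = 5.15e-09) and was 23.7-fold higher on day 15 than on day 0. Its close paralog Bmp8a, on the same chromosome, stood at 5.96 and 6.14 on day 0, 7.17 and 6.92 on day 1 and 6.54 and 6.41 on day 15. Whether the probes separate these paralogs was not tested.

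Bmp7, whose product is needed for kidney and eye development, stood near background through day 11. Its array levels lay between 5.17 and 5.74 from day 0 to day 11. They stood at 6.50 and 6.45 on day 15, 8.03 and 8.12 on day 18 and 8.47 and 8.63 in iPSC. It was the only ligand gene of the 4 whose highest group was iPSC, and its arrays on days 15 and 18 and in iPSC did not overlap. Bmp2, which encodes the close relative of BMP4, lay between 3.67 and 5.25 on the 18 arrays. Since both levels lay under background in every comparison, no fold change is given for it, although its difference passed both limits in some comparisons and it is counted there.

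The Id genes were not all called in the same direction. Id1, a target used widely as a readout of BMP signalling, stood at 9.20 and 9.04 on day 0 and 9.55 and 9.52 on day 1. It had 9.31 and 9.18 on day 3, 9.16 and 9.14 on day 5, 9.88 and 9.84 on day 7, 10.55 and 10.54 on day 11 and 10.16 and 10.14 on day 15. Day 18 had 8.90 and 8.06, and iPSC had 6.89 and 6.91. Id1 was highest on day 11 and lowest in iPSC, and the arrays of days 3 and 5 overlapped those of day 0. The difference of 0.42 ± 0.18 (SE) on day 1 was not called (limma adjusted p = 0.0653).

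Id2 too was highest on day 11 and lowest in iPSC, over a range of 1.58 against 3.64 for Id1. Its rise was not smaller: on day 11 Id2 was 1.43 and Id1 1.42 above day 0. In iPSC they differed from day 0 by -0.15 and -2.22. Its arrays were at 9.97 and 9.92 on day 0, 10.38 and 10.44 on day 1, 10.49 and 10.54 on day 3 and 10.48 and 10.49 on day 5. They stood at 11.26 and 11.27 on day 7, 11.34 and 11.41 on day 11 and 11.12 and 11.20 on day 15. Day 18 had 10.26 and 9.85 and iPSC had 9.80 and 9.79. The step up fell between days 5 and 7, and the arrays of day 18 lay on both sides of those of day 0. Over the group means Id1 and Id2 had r = 0.848 (9 groups), and Id2 and Bmp8b r = 0.905.

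Id4, the family member best known from the nervous system and spermatogonia, stood at 6.67 and 6.69 on day 0, 6.62 and 6.59 on day 1 and 6.10 and 5.97 on day 3. It had 6.42 and 6.43 on day 5, 7.32 and 7.19 on day 7, 8.11 and 7.99 on day 11 and 7.69 and 7.46 on day 15. Day 18 had 6.74 and 6.29, and iPSC 7.14 and 7.21. It was lowest on day 3 and highest on day 11, as Id1 and Id2 also were on day 11.

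Id3 was the only Id gene called, and called lower, on days 1, 3 and 5 against day 0, while on day 3 Id4 differed by -0.65 and was not called. A difference between the Id genes was not tested. The Id3 arrays were at 9.43 and 9.34 on day 0, 8.33 and 8.32 on day 1, 7.79 and 7.83 on day 3 and 7.79 and 7.69 on day 5. They stood at 7.99 and 7.92 on day 7, 8.39 and 8.37 on day 11 and 7.92 and 7.99 on day 15. Day 18 had 9.10 and 7.30, and iPSC 6.94 and 6.67. Every later array lay below both arrays of day 0, replicate 1 of day 18 by the least. Id3 fell by 1.06 ± 0.36 (SE) on day 1 (limma adjusted p = 0.0246). The arrays of day 18 enter its spread, and with both of them left out of the fit the same difference had adjusted p = 9.86e-08. The call on day 1 was also lost (adjusted p = 0.0710 to 0.0953) when any 1 array of days 0 or 1 was left out. Id3 had r = 0.524 with Id1, 0.061 with Id2 and -0.040 with Id4 over the 9 group means.

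Smad6 changed least of the 10. Its array levels lay between 6.34 and 7.21, with a mean of 7.10 ± 0.05 (SD, n = 2) on day 0, 6.38 ± 0.06 on day 3 and 7.21 ± 0.0040 in iPSC. It was not called in any comparison. In its order of group means, the neighbours from day 18 down to day 3 all overlapped.

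**Figure D2:**
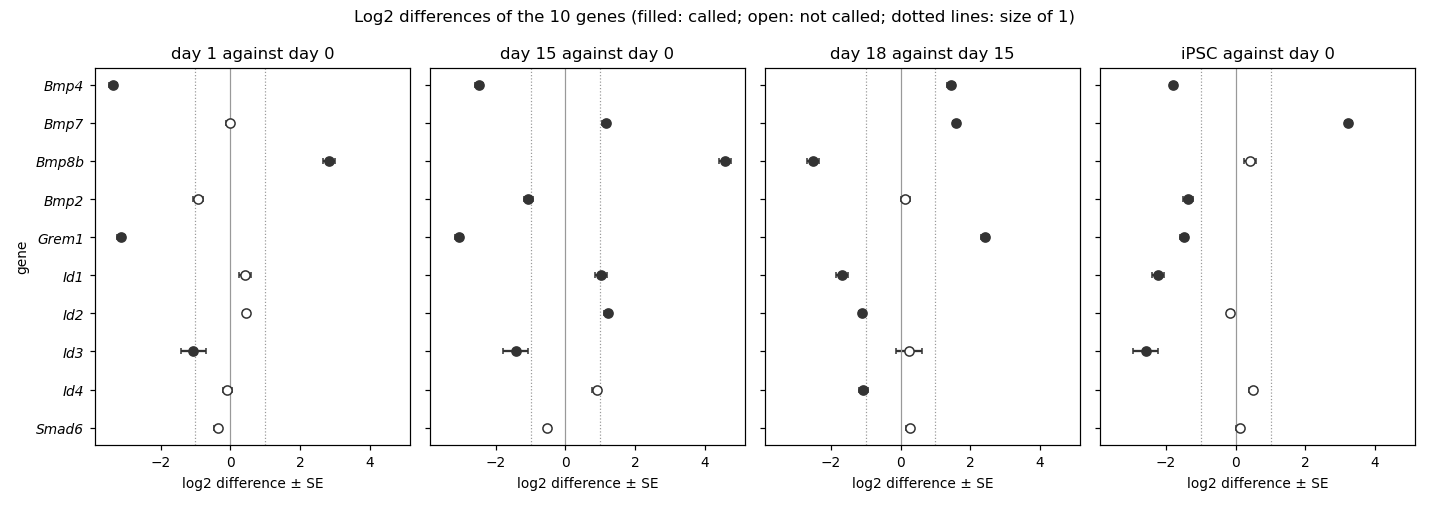
Log2 differences with their SE (horizontal axes) of the 10 genes in 4 comparisons, each over 2 arrays a group, with filled points for genes called by limma and open points for those not called. On day 18 against day 15, Bmp4, Bmp7 and Grem1 lie to the right of 1 and Bmp8b, Id1, Id2 and Id4 to the left of -1.

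On day 3, 5 of 10 genes were called against day 0, beside 17.6% of all genes, and on day 5 again 5, beside 19.2%. Bmp8b was higher and Bmp2, Bmp4, Grem1 and Id3 lower on both days. On day 7 Id2 joined them, so that 6 were called, beside 20.0% of all genes. On day 11 the count was 7, beside 19.5%. Id1 was then 1.42 ± 0.18 (SE), Id2 1.43 ± 0.10 and Id4 1.37 ± 0.12 above day 0, with adjusted p of 6.48e-06, 1.41e-08 and 1.85e-07 in limma, while Id3 was 2.01-fold lower (adjusted p = 0.0283). The call of Id3 on day 11 was lost, at adjusted p = 0.0750 to 0.103, when any 1 array of days 0 or 11 was left out.

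On day 15, the end of induction, 8 of 10 genes were called against day 0, beside 18.9% of all genes. Bmp7, Bmp8b, Id1 and Id2 were higher and Bmp2, Bmp4, Grem1 and Id3 lower. Bmp7 was at least 2.22-fold higher (limma adjusted p = 1.56e-07), a bound taken against the background level because day 0 lay at it. The same holds for its later folds against day 0. Id1 was 1.03 ± 0.18 above day 0, just over the limit of 1, and it was under the limit after another quantile normalization (0.98), after centring each array (0.97) and without replicate 2 of day 0 (0.95). Id4, at 0.89 ± 0.12, and Smad6, at -0.52 ± 0.10, were not called, though Id4 was at 1.01 without replicate 2 of day 15.

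Between neighbouring days of induction few of the 10 were called. The counts were 0 from day 1 to day 3, where 3.03% of all genes were called, 0 from day 3 to day 5 (1.15%), 2 from day 5 to day 7 (1.02%), 0 from day 7 to day 11 (3.05%) and 0 from day 11 to day 15 (1.91%). With no minimum fold change, limma at adjusted p under 0.05 passed 4, 3, 5, 5 and 5 of them in these intervals. The counts over all 20233 genes were then 6581, 2986, 2430, 5229 and 3281. The pair called from day 5 to day 7 was Bmp8b, by 1.16 ± 0.17 (SE), and Grem1, by 1.08 ± 0.11 (limma adjusted p = 0.000454 and 2.77e-05). Without replicate 2 of day 5 the difference of Grem1 was 0.99 and its call was lost. In the same interval Id1, Id2 and Id4 differed by 0.71, 0.78 and 0.83, and Id3 by 0.22, none of them called.

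When doxycycline and vitamin C had been removed, 7 of 10 genes were called on day 18 against day 15, beside 8.74% of all genes. Grem1 rose by 2.43 ± 0.11 (SE), or 5.38-fold, Bmp7 by 1.60 ± 0.10 and Bmp4 by 1.44 ± 0.11, with adjusted p = 1.32e-09, 1.95e-08 and 1.21e-07 in limma. Bmp8b fell by 2.50 ± 0.17, or 5.66-fold, Id1 by 1.67 ± 0.18, Id2 by 1.10 ± 0.10 and Id4 by 1.06 ± 0.12 (adjusted p = 3.88e-08, 3.01e-06, 5.99e-07 and 5.65e-06). Since no group kept the additives until day 18, their removal, the 3 more days and the loss of some cells cannot be told apart. Marker sums moved in the same interval. The summed signal of 5 endothelial markers was 9.52 and 9.31 on day 15 and 10.88 and 11.17 on day 18 (log2), where 2 of the 5 were under background. These markers did not move together. Cdh5 went from 7.41 and 6.84 to 9.98 and 10.39, and Pecam1 from 6.85 and 6.20 to 9.54 and 9.74. Tek went down, from 8.62 and 8.61 to 6.11 and 5.67. In iPSC Pecam1 was at 9.79 and 9.84, while Cdh5 was at 4.73 and 4.85, under background. The summed signal of the 9 fibroblast markers was also higher on day 18 than on day 15, as given above. The part of either list in the changes of the 10 genes was not tested.

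The arrays of day 18 disagreed most on the Id genes. Replicate 1 was above replicate 2 by 1.80 for Id3, 0.84 for Id1, 0.45 for Id4 and 0.41 for Id2, each more than the largest gap of that gene in any other group (0.27, 0.16, 0.23 and 0.08). The gap of Id3 was wider than that of 99.8% of all genes. Replicate 1 also had the higher level of all 9 fibroblast markers, with a median gap of 0.81, and the lower level of all 6 epithelial markers, with a median gap of -0.22. For Bmp7, Bmp8b, Grem1 and Smad6 the gap was 0.05 to 0.16 in size, within that of other groups, and for Bmp4 it was 0.29 against at most 0.23 elsewhere. With replicate 2 of day 18 alone, the difference of Id3 from day 15 was -0.66, and with replicate 1 alone it was 1.15, so that no direction can be given for it on day 18. With replicate 1 alone the differences of Id2 and Id4 from day 15 were -0.90 and -0.84, within the limit, and that of Id1 was -1.25. Without replicate 1 of day 15 the difference of Id4 was -0.95. The part of fibroblast RNA in these gaps was not tested.

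**Figure D3:**
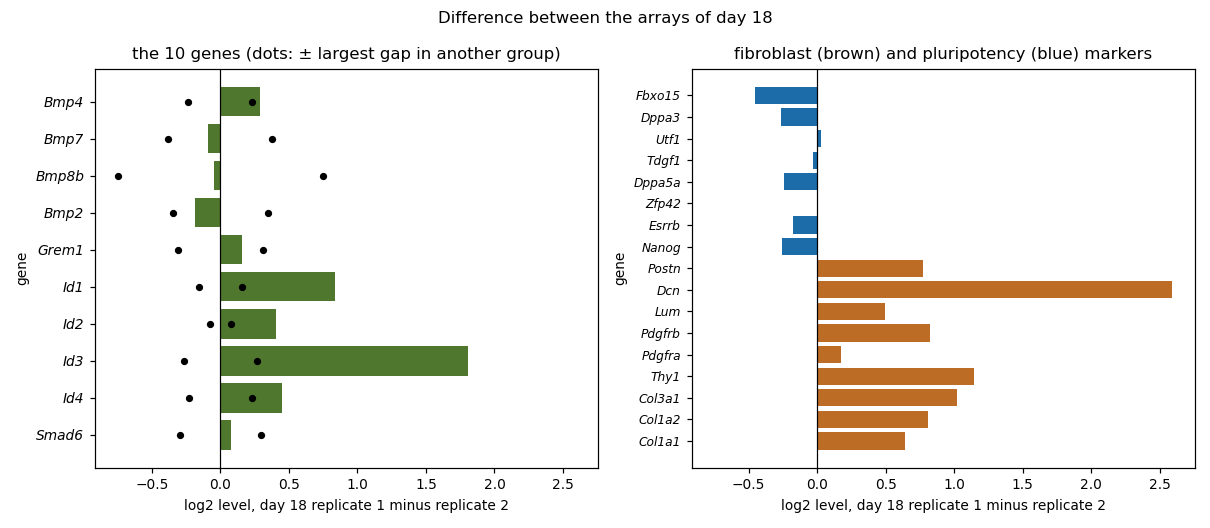
Log2 level on day 18 replicate 1 minus replicate 2 (horizontal axes) for the 10 genes, with dots at plus and minus the largest gap of each gene in another group, and for the fibroblast and pluripotency markers. Id3, Id1, Id4 and Id2 were higher on replicate 1, the array with the higher level of all 9 fibroblast markers.

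Against day 0, 4 of 10 genes were called on day 18, beside 17.5% of all genes: Bmp7 (2.76 ± 0.10, SE, at least 6.74-fold) and Bmp8b (2.07 ± 0.17) were higher and Bmp4 (-1.04 ± 0.11) and Id3 (-1.18 ± 0.36) lower, at adjusted p of 2.85e-11, 9.82e-08, 1.34e-06 and 0.0115 in limma. Without replicate 2 of day 18 the differences of Bmp4 and Id3 were -0.90 and -0.28 and neither was called. Without replicate 1 of day 18, Id1 was called too, at -1.06, and without replicate 1 of day 0 the call of Id3 was lost (adjusted p = 0.0541), as it was with only the 4 arrays compared in the fit (adjusted p = 0.149). Bmp2 was called, within the background range, without replicate 2 of day 18.

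In the iPSC line against day 0, 6 of 10 genes were called, beside 19.9% of all genes. This established line was not a later day of the course. It grew with Gsk3 and Mek inhibitors, so cell state and medium cannot be told apart. Bmp7 was at least 9.37-fold higher (3.23 ± 0.10 on the log2 scale, SE; limma adjusted p = 5.48e-12). Id3 differed by -2.58 ± 0.36 and Id1 by -2.22 ± 0.18 (adjusted p = 2.10e-05 and 6.76e-08). Bmp4 differed by -1.78 ± 0.11 and Grem1 by -1.48 ± 0.11 (adjusted p = 4.62e-09 and 3.63e-08), and Bmp2 was called lower within the background range. Bmp8b (0.41 ± 0.17), Id2 (-0.15 ± 0.10), Id4 (0.49 ± 0.12) and Smad6 (0.12 ± 0.10) were not called. In this line Id1 and Id3 were thus called lower than in fibroblasts, and Id2 and Id4 were not called. A difference between the Id genes was not tested here either.

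From day 18 to iPSC, 3 of 10 genes were called, beside 4.41% of all genes. They were Bmp8b, Id1 and Id3, which differed by -1.66 ± 0.17, -1.58 ± 0.18 and -1.40 ± 0.36 (SE; limma adjusted p = 4.18e-06, 1.06e-05 and 0.00715). Against replicate 2 of day 18 alone the difference of Id3 was -0.49 and its call was lost, as it also was without replicate 2 of iPSC (adjusted p = 0.0549) or with only the 4 arrays compared in the fit (adjusted p = 0.141). Bmp4 and Grem1 differed by -0.74 ± 0.11 and -0.86 ± 0.11 between iPSC and day 18 and were not called, though Grem1 was at -1.01 without replicate 1 of iPSC.

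The iPSC line was also compared with day 15, the last day with the factors induced, a comparison added after the values were seen. Of the 10 genes 6 were called, beside 11.0% of all genes. Bmp8b was 17.9-fold lower and Id1 9.49-fold lower (limma adjusted p = 1.80e-10 and 3.20e-09). Id2 and Id3 differed by -1.36 and -1.15, and Bmp7 and Grem1 by 2.08 and 1.57. The call of Id3 here was lost without either array of day 15 or without replicate 2 of iPSC. The arrays of day 18 enter its spread. With both of them left out of the fit the same difference had a limma adjusted p of 6.10e-08. The iPSC medium held Gsk3 and Mek inhibitors that day 15 lacked, so the state of the cells and the medium cannot be told apart. Grem1 was higher on day 18 and in iPSC, as was the summed signal of the fibroblast markers. That sum was 11.54 to 13.32 there against 9.84 to 9.86 on day 15 (log2). Not every marker followed it on day 18. Dcn stood at 8.32 and 5.73, against 6.42 and 6.21 on day 15, and Lum was under background on both days. The part of fibroblast or feeder RNA in the levels of Grem1 and Bmp4 was not tested.

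The other genes of the pathway were taken from 6 lists with 64 members, all of them measured. Against day 0, 19 of the 64 were called on day 1 (29.7%, 5 higher and 14 lower, beside 14.2% of all genes), 25 on day 15 (39.1%, 5 higher and 20 lower, beside 18.9%) and 19 in iPSC (29.7%, 3 higher and 16 lower, beside 19.9%). The median difference of the 64 was -0.18, -0.39 and -0.43 in these comparisons, where that of all genes was 0.01, 0.05 and 0.01. On day 18 against day 15, 4 were higher and 4 lower (12.5%, near the 8.74% of all genes), with a median of 0.01 against -0.06 over all genes.

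Of 15 secreted or surface antagonists, the class of Grem1, 5 were lower, 1 higher and 9 not called on day 1, with a median of -0.29. The share called was 40.0%, beside 14.2% of all genes. On day 15, 8 were lower, 0 higher and 7 not called (53.3% called, beside 18.9% of all genes), with a median of -1.18. Bmper, whose product binds BMPs in the matrix, stood at 9.19 and 9.10 on day 0, 7.17 and 7.42 on day 1 and 5.71 on both arrays of day 15, a difference of -3.43 ± 0.16 (SE; limma adjusted p = 2.18e-10) from day 0. The chordin relative Chrdl1 was at least 3.66-fold lower on day 15, under background, and the DAN family gene Nbl1 differed by -2.26 from day 0. Fst, which encodes the activin and BMP binding protein follistatin, rose by 1.58 ± 0.11 on day 1. On day 18 against day 15, Fstl3, a follistatin relative, rose by 2.12 ± 0.09, and Twsg1 and Nbl1 by 1.09 and 1.06, in the same interval as Grem1. Chrdl1 was called as well, at least 1.30-fold higher than its level under background. In iPSC 4 of the 15 were lower than on day 0, 0 higher and 11 not called, with a median of -0.44. The share called was 26.7%, near the 19.9% of all genes.

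Of the 10 other ligands 1 rose and 1 fell on day 1, and the same on day 15. That was 20.0% each time, near the 14.2% and 18.9% of all genes. Bmp6 was at 6.62 and 6.55 on day 0, 7.97 and 7.90 on day 1 and 8.57 and 8.55 on day 15, and then at 6.95 and 7.04 on day 18. Its difference on day 15 against day 0 was 1.97 ± 0.07 (SE; limma adjusted p = 1.34e-11), and it fell by 1.56 ± 0.07 on day 18 against day 15, an interval in which Bmp8b fell too. Bmp5 was at least 1.87-fold lower on day 1, day 15 and in iPSC, where its levels were under background.

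Of 11 receptors and co-receptors, 2 were lower and 1 higher on day 1, 6 lower and 1 higher on day 15, and 5 lower and 2 higher in iPSC. The shares called were 27.3%, 63.6% and 63.6%, beside 14.2%, 18.9% and 19.9% of all genes. The type II receptor genes Acvr2a and Acvr2b went opposite ways. Acvr2a differed from day 0 by -1.30 on day 1 and -2.05 in iPSC, and Acvr2b by 1.01 and 1.44. The type I receptor gene Bmpr1b was at 7.04 and 7.30 on day 0 and under background in iPSC, at least 3.62-fold lower, and Acvr1 differed by -1.39 on day 15. Rgma, a BMP co-receptor gene, fell by 1.53 on day 1.

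Of 9 signal transducers and their inhibitors 1 was called on day 1 (11.1%), 0 on day 15 and 1 in iPSC (11.1%). These shares lay under the 14.2%, 18.9% and 19.9% of all genes. Smad9, which encodes a BMP-activated Smad, stood at 6.08 and 5.98 on day 0 and 7.98 and 7.87 on day 1, a rise of 1.90 ± 0.12 (SE; limma adjusted p = 8.16e-09). It had 6.68 and 6.89 on day 15 and 5.61 and 5.71 in iPSC. Smad5 differed by -1.10 ± 0.07 between iPSC and day 0.

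Of 13 other BMP-responsive transcription factors 1 rose and 5 fell on day 1, and 2 were higher and 4 lower on day 15. That was 46.2% each time, beside 14.2% and 18.9% of all genes. Runx2, known from bone formation, fell by 1.58 on day 1, Dlx5, another bone gene, was at least 2.07-fold lower, at background, and Dlx2 rose by 2.03 ± 0.10 (SE). Dlx2 fell again on day 18 against day 15, by 1.32 ± 0.10. Tbx20, a cardiac T-box gene, was at least 4.70-fold higher on day 15 than on day 0 and fell by 1.59 on day 18. Among 6 basic helix-loop-helix genes, Tcf4, which encodes an E protein that Id proteins bind, differed from day 0 by -1.62 ± 0.19 on day 1, -1.13 on day 15 and -1.35 in iPSC.

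**Figure D4:**
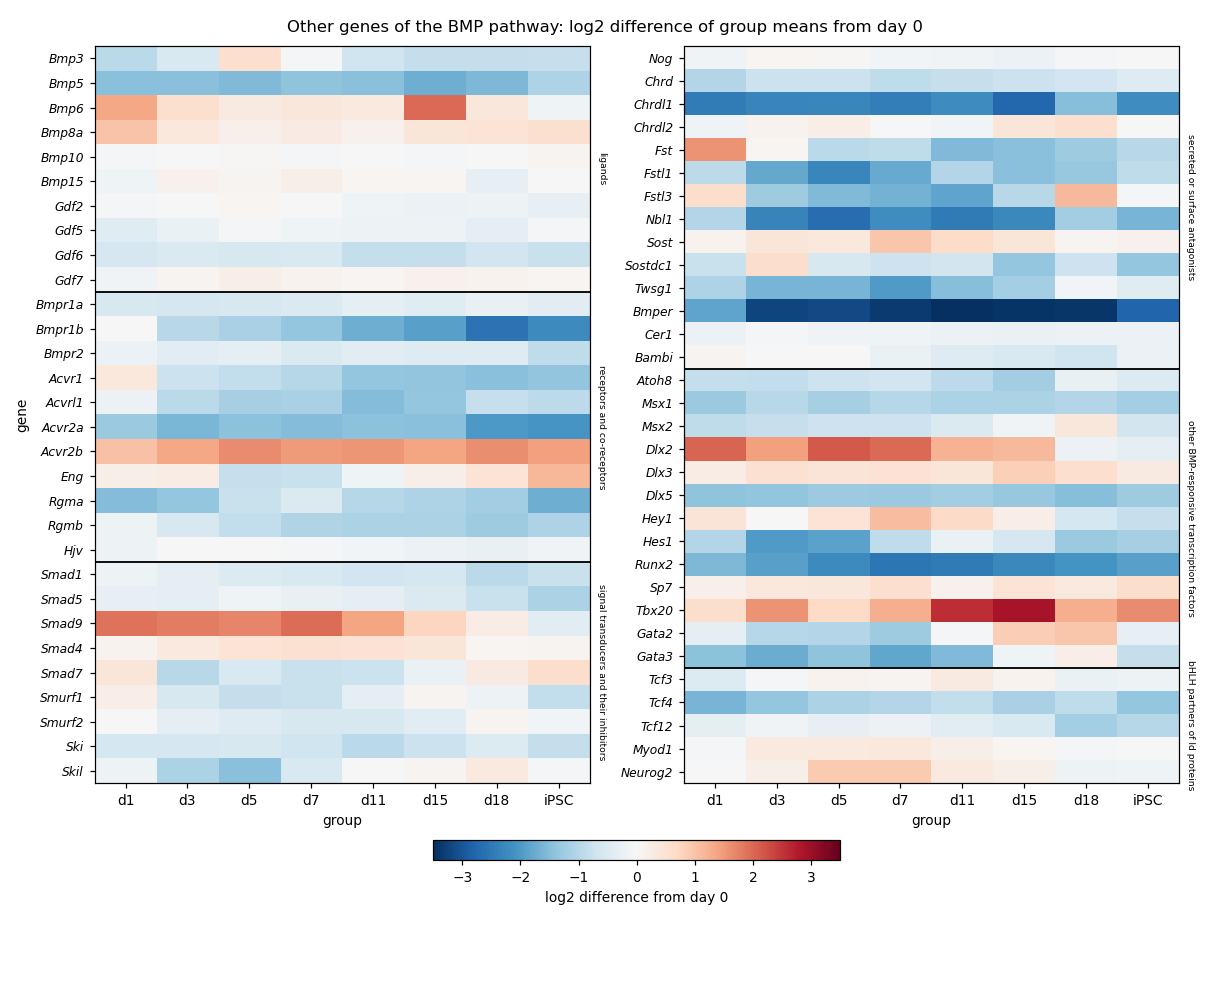
Log2 difference of group means from day 0 (colour) for 62 of the 64 other pathway genes (rows) in the 8 later groups (columns), with each list labelled at the side. Bmper, Chrdl1 and Nbl1 are lower in all 8 groups, and Acvr2b is higher in all 8.

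The genes whose course was most like that of each of the 10 were found by Pearson r over the 9 group means, among 8405 genes with a range of at least 1 and a highest mean over background. With so many genes and 9 points, high values are common, and the genes compared were measured on the same arrays. For Bmp7 they were Pla2g1b (r = 0.997), Usp48 (0.995) and Atp6v0a4 (0.994), and for Bmp4 Oaz2 (0.993), Fbxl12 (0.988) and Idua (0.985). Grem1 was most like Dact1 (0.966), Glt8d1 (0.956) and Frmd5 (0.941), and Bmp8b most like Gna14 (0.976), Tmc6 (0.967) and Chrm4 (0.959). For Id1 they were Brap (0.968), Chmp2b (0.968) and Ubqln2 (0.965), for Id2 Ripor2 (0.982), Tppp3 (0.977) and Hs3st3b1 (0.966), for Id3 Ppm1l (0.970), Efna5 (0.950) and Acot2 (0.941), and for Id4 Gli1 (0.927), Cth (0.925) and Dlgap1 (0.925). Smad6 was most like Rab18 (0.977), Kank4 (0.974) and Atp6ap2 (0.968). For Bmp2, whose values lay in the background range, they were Bace1 (0.985), Itsn1 (0.970) and Trim46 (0.966). None of the 10 genes was among the nearest 3 of another. Smad6 and Bmp2 could not be, since the limits on range and level left them out of the genes compared.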

How the data were processed

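Per the submitters' processing notes, the authors made the deposited log2 values with RMA, which corrects background, quantile normalizes the arrays and summarises each probe set. For RMA the version and chip definition, and for the files a genome build, were not given in the sources used here. Accessions, without versions, were matched to a RefSeq table of GRCm38.p6, used for names. Of 29643 probe sets, 27260 matched 1 symbol and 2383 none, giving 20233 genes, each by its probe set with the highest mean. Promoter sequences are RefSeq's, from the same assembly. limma 3.58.1 in R 4.3.3 fitted 9 group means to all 18 arrays (9 residual degrees of freedom, prior 4.25). The number of arrays limits the precision, with a median SE of 0.0976 for a log2 difference. The code was tested on simulated data. The 10 genes, the lists and the comparisons were chosen with earlier results of these data known. Named were the 10 genes, at most 4 called genes per pathway list in 4 comparisons, the 3 genes most like each of the 10, and Bmp8a as a paralog. Pairing by replicate number, normalization, filters, variance models and single arrays were varied. The median of all genes was 0.11 above day 0 on day 3 and 0.13 on day 5. A few genes of the pathway lists are counted but not reported here by name.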

Additional observations from a re-analysis of the deposited data

How the results depend on the processing

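No called difference of the 10 genes changed sign under any setting tried. Of 2880 differences refitted with 1 array left out, 23 lost their call and 7 gained it, and of 1394 under other settings with the fold limit, 6 lost it and 1 gained it. Bmp2 lost its calls on day 5 and day 7 without 1 array each, and trend and robust variances took away the calls of Id3 on day 1 (adjusted p = 0.0638) and day 11 (0.0693). The cause of these losses was not tested. Leaving out 1 array gave 1 to 2 called genes from day 5 to day 7 and 0 to 1 from day 11 to day 15. With no minimum fold change, the number called against day 0 was 7 on day 1, 9 on day 3 and 8 on day 18. Beside these stood 10123, 11764 and 11665 of all 20233 genes. Between neighbouring groups it was 4 from day 1 to 3, 3 from day 3 to 5, 5 from day 5 to 7, 5 from day 7 to 11 and 5 from day 11 to 15. The counts over all genes in these intervals are given above. From day 18 to iPSC it was 9, beside 7510 of all genes. By construction these numbers are more than with the limit (10123 against 2865 of all genes on day 1). Leaving out genes under background in all groups removed Bmp2 and its calls. The differences between replicates 1 and 2 correlated between groups at -0.19 to 0.15 (over 0.1 in 6 of 36 pairs of groups). No strong common shift by replicate number was thus seen, but such correlations cannot show whether the numbers stand for shared cultures. With the replicate block 4 genes were called on day 1 and 6 in iPSC against day 0, as without it. Leaving out both day 18 arrays or weighting arrays changed no call. With 2 arrays against 2, an exact permutation test cannot go below p = 0.333, so the calls rest on the spread shared over groups.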
